A study of Mus musculus with 3 samples.

Results

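Hematopoietic stem cells (HSCs) of mouse bone marrow were described by where in the genome their open chromatin lay: cells with the largest share of peak fragments at transcription start sites (TSSs), here called promoter-weighted, and cells with the smallest share, here called distal-weighted. In both groups most peak fragments lay at TSSs. The cells were ranked on ATAC columns of the deposited per-cell metrics, after a cell call that the authors' pipeline made on RNA and ATAC jointly. A called cell with more than 3000 fragments in peaks and at least 60% of its fragments in peaks was ranked by its share of TSS fragments among fragments in peaks, and the highest quintile (equal groups in order of the share) was set against the lowest. The rule gave 605 promoter-weighted and 604 distal-weighted cells of 3021 cells that passed, of 3757 called cells in all. Of the cells left out, 649 had too few fragments in peaks and 87 had enough but too small a share in peaks.

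The cells came from 8-week-old female wild-type C57BL/6 mice and were sorted as Lin−Sca-1+c-Kit+ (LSK) CD150+CD48−CD34− long-term HSCs after magnetic enrichment for c-Kit. DOGMA-seq, which reads chromatin, RNA and antibody tags from the same permeabilized cell, gave 1 ATAC library, 1 RNA library and 1 antibody-tag library from 1 preparation. The number of mice pooled was not stated. Both groups therefore carry the same genotype, age and treatment and sit in the same libraries. No sample replicates exist, so no comparison was tested: values are sums over cells, and their 95% intervals are exact counting intervals that cover counting error only.

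In ATAC-seq a transposase cuts open DNA and the number of fragments at a site reflects how accessible it is. Promoters, above all those rich in CpG dinucleotides, are open in most cell types, whereas distal enhancers are bound by factors such as PU.1, RUNX1 and GATA2 and differ more between blood lineages. CTCF sites are distal elements of another kind, which anchor chromatin loops. Fragments shorter than a nucleosome's wrap of DNA come from nucleosome-free DNA, and longer ones span nucleosomes.

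The sequences that follow show the sites with the largest ratios in each direction. The first set gives 200 bases (GRCm38, plus strand) at the densest part of 3 distal tiles that were relatively higher in promoter-weighted cells and 3 that were relatively lower, with capitals at any match to a GATA, ETS, PU.1, RUNX or CTCF motif on either strand. The first lower tile holds none in the stretch shown, and the higher stretches hold more of these matches than the lower ones, so single tiles need not follow the shares over all tiles given later. The second higher stretch adjoins a multi-copy tile described below, so its matches may not belong to a single distal site.
Higher, chr16:91534600-91534799: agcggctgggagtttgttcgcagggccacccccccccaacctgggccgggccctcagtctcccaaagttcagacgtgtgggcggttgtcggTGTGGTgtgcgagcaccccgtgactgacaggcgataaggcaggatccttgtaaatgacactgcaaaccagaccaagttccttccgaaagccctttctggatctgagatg
Higher, chr11:109012001-109012200: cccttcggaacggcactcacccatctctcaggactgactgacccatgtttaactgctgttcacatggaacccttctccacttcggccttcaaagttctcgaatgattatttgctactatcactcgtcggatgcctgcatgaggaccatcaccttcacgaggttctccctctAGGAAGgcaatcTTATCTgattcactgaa
Higher, chr15:85177584-85177783: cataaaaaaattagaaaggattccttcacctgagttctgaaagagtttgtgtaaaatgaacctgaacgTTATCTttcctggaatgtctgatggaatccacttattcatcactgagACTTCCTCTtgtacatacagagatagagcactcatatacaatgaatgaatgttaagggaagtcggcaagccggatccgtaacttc
Lower, chr3:41408540-41408739: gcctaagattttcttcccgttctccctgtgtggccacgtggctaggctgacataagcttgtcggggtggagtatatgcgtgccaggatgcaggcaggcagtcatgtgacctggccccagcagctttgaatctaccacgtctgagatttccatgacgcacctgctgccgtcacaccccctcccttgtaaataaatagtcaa
Lower, chr2:167383686-167383885: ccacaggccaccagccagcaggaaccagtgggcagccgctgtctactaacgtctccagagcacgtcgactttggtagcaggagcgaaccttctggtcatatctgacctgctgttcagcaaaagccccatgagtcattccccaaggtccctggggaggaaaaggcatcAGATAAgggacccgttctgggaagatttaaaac
Lower, chr5:27206295-27206494: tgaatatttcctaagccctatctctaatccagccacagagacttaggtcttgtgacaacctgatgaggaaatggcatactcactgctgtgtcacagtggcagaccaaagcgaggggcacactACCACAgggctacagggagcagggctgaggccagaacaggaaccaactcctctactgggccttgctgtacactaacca

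The second set gives RefSeq promoters (GRCm38.p6, 250 bases before to 50 after the gene's start, on the gene's strand) with every CG dinucleotide in capitals, for the first promoters in each direction whose sequence window holds the start site used here. The C2cd2 window (chr16:97922584-97922883, minus strand) has 24 CG and that of Tns3 (chr11:8664486-8664785, minus strand) has 33, and both promoters were relatively higher in promoter-weighted cells. Both promoters below them were relatively lower, with 4 CG at Sla2 (chr2:156887172-156887471, minus strand) and 36 at Rnf32 (chr5:29195743-29196042, plus strand), so the letters alone do not sort them.
C2cd2: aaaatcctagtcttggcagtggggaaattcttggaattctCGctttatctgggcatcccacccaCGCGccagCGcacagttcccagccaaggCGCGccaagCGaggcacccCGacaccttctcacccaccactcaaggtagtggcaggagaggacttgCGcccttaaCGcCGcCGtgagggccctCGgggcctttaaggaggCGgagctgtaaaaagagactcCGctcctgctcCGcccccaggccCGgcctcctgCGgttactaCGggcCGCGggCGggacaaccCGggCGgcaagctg
Tns3: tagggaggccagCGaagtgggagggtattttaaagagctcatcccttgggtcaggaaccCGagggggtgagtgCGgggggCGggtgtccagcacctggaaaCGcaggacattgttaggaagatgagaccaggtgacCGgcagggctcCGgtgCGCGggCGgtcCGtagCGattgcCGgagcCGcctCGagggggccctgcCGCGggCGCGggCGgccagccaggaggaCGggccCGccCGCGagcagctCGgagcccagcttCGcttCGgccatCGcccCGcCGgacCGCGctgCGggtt
Sla2: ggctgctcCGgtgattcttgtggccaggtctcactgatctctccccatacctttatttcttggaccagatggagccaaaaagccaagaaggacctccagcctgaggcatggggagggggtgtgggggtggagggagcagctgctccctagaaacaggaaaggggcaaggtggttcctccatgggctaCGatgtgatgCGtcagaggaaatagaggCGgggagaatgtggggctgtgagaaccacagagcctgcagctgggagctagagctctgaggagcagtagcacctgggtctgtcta
Rnf32: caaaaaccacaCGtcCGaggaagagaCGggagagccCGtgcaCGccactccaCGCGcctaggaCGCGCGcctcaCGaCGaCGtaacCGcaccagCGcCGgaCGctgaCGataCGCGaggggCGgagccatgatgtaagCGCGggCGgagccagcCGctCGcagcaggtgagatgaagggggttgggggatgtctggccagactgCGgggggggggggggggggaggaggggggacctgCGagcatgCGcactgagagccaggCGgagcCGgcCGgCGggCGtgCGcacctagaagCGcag
The median over 32851 RefSeq promoter windows was 7 CG. It was 24 for genes counted below as CpG-rich and 5 for the others.

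The share that chose the cells ran from 58.6% in the lowest cell through a median of 74.3% to 83.9% in the highest. Its SD over cells was 2.96 percentage points, whereas counting alone would give 0.512. The limits cut a continuous range by rank: the last cell inside the distal-weighted group had 72.03% and the first outside it 72.04%, and the last cell outside the promoter-weighted group had 76.36% and the first inside it 76.37%. A share rebuilt from 500-bp tiles on odd-numbered autosomes correlated over the 3021 cells with that on even-numbered autosomes and X (Pearson r = 0.86, Spearman rho = 0.81), as a description of cells that share a library. Cells in the highest quintile on odd autosomes had a median of 69.3% on the chromosomes that had not chosen them, and those in the lowest quintile 64.1%. With the roles exchanged the medians were 71.3% and 66.6%.

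**Figure D1:**
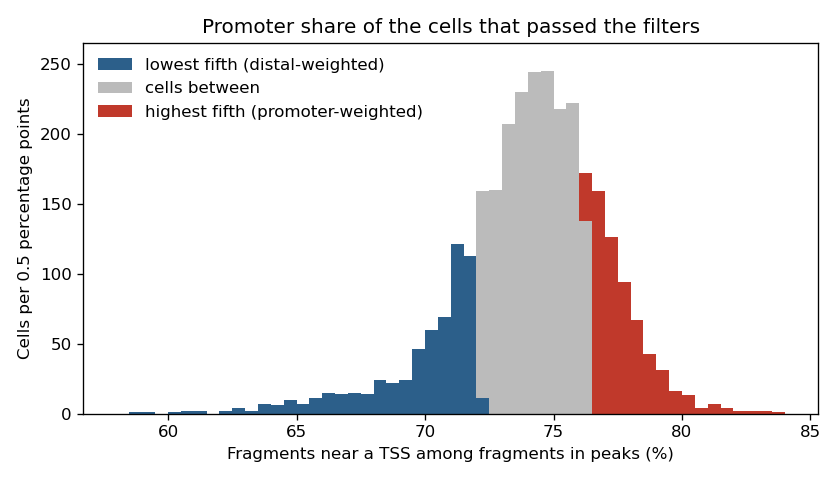
Number of cells per 0.5 percentage points of the share of TSS fragments among fragments in peaks, stacked by group. The 604 distal-weighted cells form a long lower tail down to 58.6%, and the 605 promoter-weighted cells a shorter one up to 83.9%, with no gap at either limit.

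Depth was close in both groups. The median cell had 11714.5 fragments in the distal-weighted group and 11004 in the promoter-weighted group, and the median share of fragments in peaks was 70.8% and 70.5%. The median share of TSS fragments among peak fragments, which the rule fixed, was 70.6% and 77.4%. Duplicate read pairs went from a median of 71.2% in the lowest quintile through 70.6%, 70.4% and 70.1% to 69.7% in the highest, and pairs of low mapping quality went from 5.98% through 6.28%, 6.46% and 6.64% to 6.84%. Mitochondrial pairs had medians of 0.206% and 0.273% in the distal- and promoter-weighted cells. Doublet marks, given to cells with an excess of positions where over 2 of their fragments overlap, fell on 28 of 604 distal-weighted cells (4.64%, interval 3.10 to 6.63) and 45 of 605 promoter-weighted cells (7.44%, interval 5.48 to 9.83). The part of these measures in the results that follow was not tested, except where a value without the cells in question is given.

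The RNA library entered the cell call but not the ranking by share. The amount of RNA was close in both groups. Promoter-weighted cells had 4146.9 ± 1553 unique molecular identifiers (UMIs) per cell (mean ± SD over 605 cells) and distal-weighted cells 4140.2 ± 1516 (604 cells), a ratio of 1.00 (log2 0.0023, interval −0.00021 to 0.0048). Medians in order of the quintiles were 3945, 3778.5, 3869.5, 3792 and 3883 UMIs, with no direction. Genes detected had medians of 2039.5 and 2029. The ratio was not stable in sign: it was 0.061 on the log2 scale with deciles in place of quintiles and −0.081 with quintiles of the share rebuilt in tiles.

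The kind of RNA differed slightly. Intronic UMIs, which can stem from unspliced RNA in the nucleus, were 47.03% of UMIs in promoter-weighted cells (interval 46.97 to 47.09) and 48.86% in distal-weighted cells (48.79 to 48.92), a difference of −1.83 percentage points. The medians over cells went down at each step, from 49.2% through 48.7%, 48.4% and 48.3% to 47.2%, although the quartiles of the end groups, 43.7% to 50.7% and 45.8% to 52.2%, overlapped over most of their width. In absolute terms the promoter-weighted cells had 2196.6 exonic UMIs against 2117.5 and 1950.3 intronic UMIs against 2022.8. The lower intronic share was seen in each of 6 classes of cells with a like UMI number: with 3000 to 4000 UMIs it was 47.6% in 200 promoter-weighted cells and 48.4% in 209 distal-weighted cells, and with 4000 to 5000 UMIs 46.8% in 152 and 49.6% in 169. Intergenic reads moved the other way, with medians of 16.9% of mapped RNA reads in each of the 3 lowest quintiles, then 17.3% and 17.8%. Antisense reads were a median of 37.5% of intronic RNA reads in distal-weighted and 38.6% in promoter-weighted cells. The origin of the intronic reads was not tested. The size of the intronic difference depended on how the share was computed. It was −0.54 percentage points when odd autosomes chose the cells, −0.45 when even autosomes and X did, and −0.44 when tiles on all chromosomes did.

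Fragments moved with distance to the nearest annotated TSS in a graded manner, as the rule requires at the near end. Within 100 bp of a TSS lay 24.1% of the fragments of promoter-weighted cells and 21.5% of those of distal-weighted cells (log2 0.16, interval 0.156 to 0.162). The difference was 0.09 at 500 to 1000 bp, −0.02 at 1000 to 2000 bp and −0.09 at 2000 to 5000 bp. It reached −0.25 at 20000 to 50000 bp and −0.26 at 50000 to 100000 bp, where 2.36% and 2.83% of the fragments lay. Beyond 100000 bp it was −0.18. The quintiles were in order in every class up to 100000 bp except that at 1000 to 2000 bp, where the second quintile lay at 0.0013. Beyond 100000 bp they were not, with −0.16, −0.17, −0.19 and −0.18 from the second to the highest quintile.

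**Figure D2:**
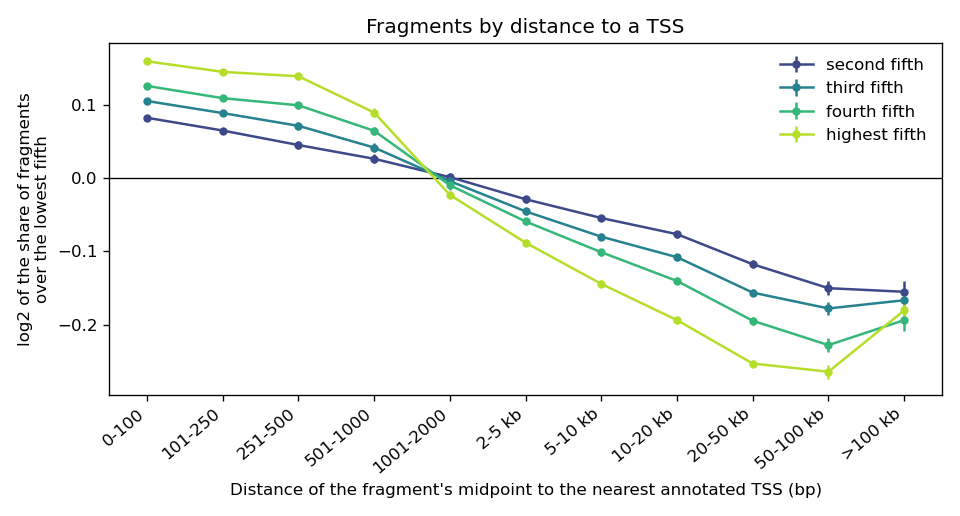
log2 of the share of fragments in each distance class over that of the lowest quintile, for the second to the highest quintile, with 95% counting intervals. The highest quintile goes from 0.16 within 100 bp of a TSS to −0.26 at 50 to 100 kb and crosses 0 between 500 and 2000 bp.

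Fragment length is no term of the rule, but the rule sets how many distal fragments come from open sites, which yield short fragments, so the length of all distal fragments is not independent of it. It differed at distal sites and hardly at promoters. Of the fragments more than 2000 bp from every TSS, 35.4% were shorter than the DNA wrapped around a nucleosome core in promoter-weighted cells (interval 35.3 to 35.4) and 38.8% in distal-weighted cells (38.8 to 38.9), a difference of −3.46 percentage points. Mononucleosomal fragments, from 1 core's length up to the length of a pair, took 38.8% against 35.7%, so that there were 1.10 of them for each short fragment in promoter-weighted cells and 0.920 in distal-weighted cells. The short share went down at each step over the quintiles: 38.8%, 37.0%, 36.3%, 35.5% and 35.4%. Within 1000 bp of a TSS it was 54.3% in distal-weighted and 54.5% in promoter-weighted cells, with 54.8%, 54.7% and 54.4% between them and no order. The lower distal share of short fragments appeared at 2000 to 10000 bp (35.8% against 39.0%), at 10000 to 50000 bp (35.6% against 39.3%) and beyond 50000 bp (31.4% against 35.4%). It remained when the cells were chosen on the other chromosomes, at −2.59 percentage points, and when each cell was thinned to 3000 fragments, at −3.66. With a limit of 100 bp the shares were 28.6% and 30.9%. Within distal tiles of 500 bp with more than 20 fragments in the cells between the groups, 52.8% of the fragments of promoter-weighted cells were short (interval 52.8 to 52.9) and 56.5% of those of distal-weighted cells (56.5 to 56.6). In tiles with more than 2 and up to 20 such fragments the shares were 24.4% and 28.2%. In tiles with 2 or fewer they were 18.3% and 17.3%, in the other direction.

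**Figure D3:**
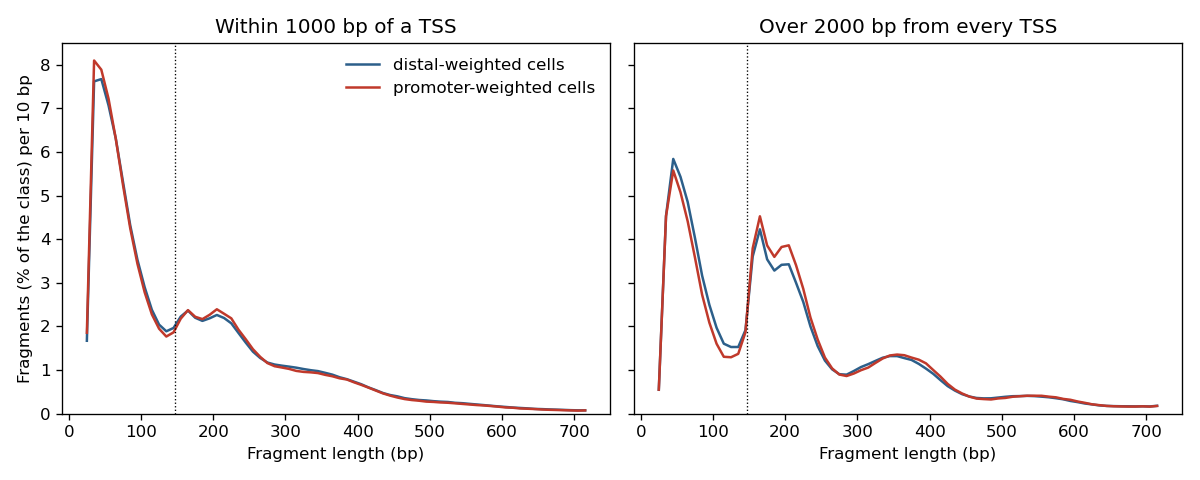
Fragment lengths in 10-bp classes, as percent of the fragments of the class, near a TSS (left) and over 2000 bp from every TSS (right); the dotted line marks the length of DNA on a nucleosome core. The curves of the 2 groups nearly coincide near TSSs, and at distal sites the promoter-weighted cells lie lower for short fragments and higher for mononucleosomal ones, at 38.8% against 35.7% of distal fragments.

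Because the rule lowers the number of distal fragments, distal sites were compared per distal fragment of each group (2753914 promoter-weighted, 3214458 distal-weighted). On this scale a value of 0 still means fewer fragments per cell: over all fragments the distal part as a whole was lower by 0.17 on the log2 scale in promoter-weighted cells. The genome was divided into 500-bp tiles, and the strength of a tile was taken from the 1812 cells between the groups. The rule ranks cells by TSS fragments among those in peaks, so fewer fragments in open distal tiles are part of the choice and the next values are a description. The 57484 tiles with more than 20 fragments in the cells between held 42.5% of the distal fragments of promoter-weighted cells and 45.4% of those of distal-weighted cells (log2 −0.10, interval −0.10 to −0.09). Tiles with 2 or fewer held 26.2% and 23.6% (log2 0.15, interval 0.14 to 0.15). The lowest class value was at tiles with over 20 and up to 50 fragments, at −0.15, and it shrank to −0.06 at over 200 and up to 500 fragments. The strongest tiles went the other way, at 0.23 for 58 tiles with over 1000 fragments, with 7 multi-copy tiles described below left out.

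Of 1346 distal tiles with at least 200 fragments in both groups together, 59 were more than 1.5-fold higher in promoter-weighted cells (4.38%) and 96 more than 1.5-fold lower (7.13%). The rule used these fragments, so the counts are a description. When the cells were chosen on the other chromosomes, 48 of the 59 and 49 of the 96 were again past 1.5-fold, with median log2 values of 0.81 and −0.59 beside 0.09 over all tiles, and all kept their side of 0, as did 1144 of all 1346 tiles. This is a repeat on largely the same cells and not an independent check: of the 605 promoter-weighted cells 452 and 424 were chosen again on odd autosomes and on even autosomes and X, and of the 604 distal-weighted cells 463 and 461. The balance of higher and lower tiles turned with the settings, to 70 and 56 with these cells, 31 and 10 with deciles, and 20 and 9 with at least 400 fragments. With at least 100 fragments it leaned further the original way, with 240 higher and 646 lower, and so it did with cells over 0.15 in peaks, with 33 and 269. All these counts include the multi-copy tiles described below, most of which were higher. Higher tiles had a median GC content of 52.8% and lower tiles 48.8%, against 53% over all 1346. A GATA match (the letters AGATAA on either strand) lay in 40.6% of the lower tiles, 11.9% of the higher tiles and 23.1% of all; an ETS match (AGGAAG) lay in 75%, 47.5% and 64.6%. A CTCF match lay in 1.04% of lower tiles, 10.2% of higher tiles and 8.02% of all. With at least 100 fragments GATA lay in 31.7%, 17.9% and 23.4% of lower, higher and all tiles, ETS in 74.5%, 51.2% and 63.2%, and CTCF in 0.929%, 16.2% and 11.6%.

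The 10 lower tiles with the largest ratios, named by a set rule, lay in introns or between genes. The first, chr3:41408501-41409000, is intergenic and 146980 bp from the start of Jade1, which encodes a subunit of a histone acetyltransferase complex. It had 176 fragments in the lowest quintile, then 100, 93, 68 and 37, a log2 value of −2.03 (interval −2.58 to −1.51) and of −1.39 with cells chosen on other chromosomes. The counts were lower at each step.

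The tile chr2:167383501-167384000, between genes and 34568 bp from B4galt5, a galactosyltransferase gene, had 168, 130, 93, 75 and 55 fragments over the quintiles (log2 −1.39, interval −1.85 to −0.94). It holds matches to the GATA, RUNX and AP-1 motifs, of which the GATA match stands in capitals in its sequence above. The tile chr5:27206001-27206500, in an intron of Dpp6, had 174, 137, 127, 112 and 59 (log2 −1.34). A tile 16298 bp from Ipp, chr4:116491001-116491500, had 235, 155, 122, 102 and 80 (log2 −1.33). In each of these the promoter-weighted quintile had the lowest count of all.

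The other lower tiles were similar in size, from −1.32 to −1.13. They lay in introns of Zbtb20 (chr16:43376501-43377000), Alk (chr17:72159001-72159500) and Stk10 (chr11:32558501-32559000), in an intron of Gm41335 (chr15:63665501-63666000), 226330 bp from Chd7 (chr4:8917001-8917500) and 2488 bp from Rabggta (chr14:55724501-55725000). Zbtb20 encodes a zinc-finger repressor, Chd7 a chromatin remodeler and Stk10 a kinase found in lymphoid and other blood cells.

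Of the 10 higher tiles 1 lay in an intron of Jarid2 and 1 in a multi-copy site, and the rest between genes. The first, chr16:91534501-91535000, lies 12321 bp from Ifngr2, which encodes a chain of the interferon-gamma receptor, and had 89, 102, 150, 151 and 238 fragments over the quintiles (log2 1.64, interval 1.29 to 2.01). The second, chr11:109012001-109012500, had 89, 138, 159, 165 and 233 (log2 1.61, interval 1.25 to 1.98). It adjoins a tile that held over 4 fragments in 35.2% of the cells with any. The third, chr15:85177501-85178000, 28198 bp from Fbln1, had 62, 86, 111, 135 and 159 (log2 1.58). A tile in an intron of Jarid2, a gene of a Polycomb cofactor, chr13:44869501-44870000, had 210, 303, 337, 370 and 444 (log2 1.30). The counts were higher at each step in all 4.

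A diploid cell has few copies of a site to cut, and 7 distal tiles held more than 4 fragments in over 2% of the cells with any, so they are called multi-copy here. The strongest, chr13:9011501-9012000, had 5.37 fragments per cell with any, 66.2% of its bases in masked repeats, and 4084 fragments in promoter-weighted against 2131 in distal-weighted cells (log2 1.16, interval 1.09 to 1.24). The others were at 0.55 to 1.18. One of them, chr16:57391501-57392000 in an intron of Cmss1 and Filip1l, was also among the 10 higher tiles. Over all fragments the 7 together were 1.85-fold higher in promoter-weighted cells. Without them 53 of 1339 tiles were past 1.5-fold higher and 96 lower. Whether the multi-copy tiles and their neighbors hold sequence of the ribosomal RNA genes described next was not tested.

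The excess with the most fragments among the sites described here lay at the ribosomal RNA (rRNA) genes, the arrayed templates of the ribosome's RNA that RNA polymerase I transcribes in the nucleolus. The reference holds part of 1 repeat on chromosome 17, where the annotation lists the rRNA gene CT010467.1 with the transcripts Gm26917, Gm42418 and AY036118, and reads of the many copies gather there. In chr17:39842001-39850000 lay 68073 fragments of promoter-weighted cells and 37163 of distal-weighted cells, that is 0.985% (interval 0.977 to 0.992) and 0.518% (0.513 to 0.524) of all fragments, a ratio of 1.90 (log2 0.93, interval 0.91 to 0.94). The quintiles between had 0.613%, 0.697% and 0.811%, so the share was higher at each step. Over cells the medians were 0.439% and 0.916%, with quartiles of 0.224% to 0.717% and 0.540% to 1.42%, and single cells ranged from 0.0060% to 3.24% and from 0.026% to 4.17%.

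Part of this locus counts as TSS in the rule, since its transcripts have annotated starts: it took 1.05% of the fragments within 1000 bp of a TSS in distal-weighted and 1.80% in promoter-weighted cells. The contrast was nearly as large without it. In tiles, the median share of TSS fragments was 65.4% and 70.6% in the groups, and 65.3% and 70.4% without the locus and the multi-copy tiles. With cells chosen on even-numbered autosomes and X the locus had a log2 value of 0.61 (interval 0.59 to 0.63), and with cells chosen after removing it 0.68. It was chosen for description after its values were seen. Without the locus the promoter fragments of chromosome 17 had a log2 value of −0.0063 (interval −0.015 to 0.0027). Across the 3021 cells, which share a library, the Spearman rho of its share was 0.32 with the promoter share, 0.15 with pairs of low mapping quality and 0.0029 with the mitochondrial share. The promoter share itself had a rho of 0.34 with pairs of low mapping quality and −0.29 with duplicate pairs.

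A smaller share of promoters than of distal tiles was past 1.5-fold, but the 2 kinds of site were not matched in window size or depth. At least 400 fragments lay in 5815 promoters and in 285 distal tiles. Of 9018 promoters of protein-coding genes with at least 200 fragments within 1000 bp of the TSS in both groups together, 71 were more than 1.5-fold higher in promoter-weighted cells (0.787%) and 97 more than 1.5-fold lower (1.08%), per promoter fragment of the group. Over all fragments the promoter windows as a whole were higher by 0.16 on the log2 scale. With cells chosen on the other chromosomes, largely the same cells, 9 of the 71 and 51 of the 97 were past 1.5-fold again, with medians of 0.45 and −0.60. All kept their side of 0, as did 7453 of all 9018 promoters. The balance turned here too, to 110 higher and 80 lower with deciles and 92 and 89 with quintiles within deciles of fragments in peaks, and was 19 and 86 with cells chosen on the other chromosomes. The higher promoters held their size less often than the lower ones in this count, and the difference between the shares was not tested.

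CpG content sorted the promoters in a graded manner. A gene was called CpG-poor if the observed number of CG over that expected from base composition, 500 bp each side of the TSS, was below 0.6. Promoters below 0.2 held 0.841% of the promoter fragments of promoter-weighted cells and 1.04% of those of distal-weighted cells (log2 −0.31, interval −0.33 to −0.29). The value was −0.20 at 0.2 to 0.4, −0.06 at 0.4 to 0.6, −0.01 at 0.6 to 0.8, 0.04 at 0.8 to 1.0 and 0.06 from 1 up. The share of CpG-poor promoters went down at each step over the quintiles: 13.1%, 12.5%, 12.4%, 12.2% and 12.1%. Of the 97 lower promoters, 59 were among the 1225 CpG-poor ones, and of the 71 higher, 10 were.

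GC content and strength went with CpG content, and within each class of either that was compared the CpG-poor sum was the lower one. At a GC content of 50 to 55% CpG-poor promoters were at −0.12 (interval −0.13 to −0.11) and CpG-rich ones at −0.07 (−0.07 to −0.06). At 60 to 65% they were at −0.02 (−0.04 to −0.005) and 0.02 (0.01 to 0.02). Among promoters with 300 to 749 fragments in the cells between, CpG-poor ones were at −0.08 and CpG-rich ones at 0.04, and among those with 1500 or more, at −0.04 and 0.01. Weak promoters were lower as a class: those with fewer than 75 fragments in the cells between, 8620 genes, were at −0.29.

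**Figure D4:**
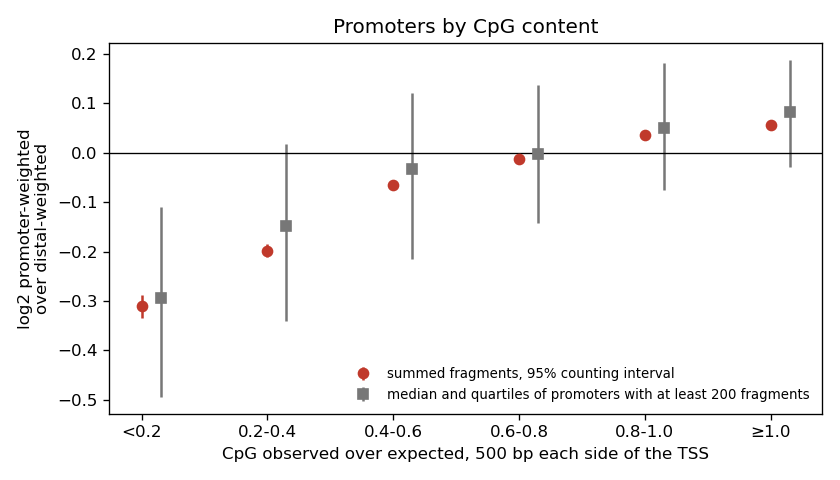
log2 of promoter-weighted over distal-weighted promoter fragments by CpG observed over expected: summed fragments with 95% counting intervals (circles), and median with quartiles of promoters with at least 200 fragments (squares). The sums go from −0.31 below 0.2 to 0.06 from 1 up, and the quartiles of neighboring classes overlap.

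The lower promoters belong to genes of varied roles. Abi3, an adaptor of the actin-regulating WAVE complex in blood cells (chr11:95841409-95843409), had 159, 97, 127, 82 and 73 fragments over the quintiles (log2 −1.23, interval −1.65 to −0.83). Sla2, a Src-like adaptor that dampens receptor signaling (chr2:156886192-156888192), had 179, 133, 138, 112 and 86 (log2 −1.17, interval −1.56 to −0.79). Both are CpG-poor, with ratios of 0.20 and 0.26. Neither was lower at every step, but in both the lowest count was in the promoter-weighted quintile.

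The window of Ctla2a, a cysteine-protease inhibitor gene in the multi-lineage panel of the study, is shared with the gene models Gm49391 and Gm49393, so their fragments cannot be told apart (chr13:60935571-60937571). It had 177, 129, 128, 98 and 87 fragments (log2 −1.14, interval −1.52 to −0.76). Olfr646, an olfactory receptor gene, had 211, 161, 157, 138 and 109 (log2 −1.06). Epb42, a red cell membrane protein gene, had 130, 78, 75, 84 and 72 (log2 −0.96). Rnf32, Lrrc61, Zfp612, Alg14 and Vwa7 completed the 10, at −1.12 to −0.90, and 4 of these 5 had CpG ratios above 0.6.

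The 10 higher promoters were CpG-rich but for Iqcn and Slc41a3. C2cd2 (chr16:97921633-97923633) had 91, 116, 123, 154 and 182 fragments over the quintiles (log2 0.89, interval 0.52 to 1.27). Tns3, a focal-adhesion tensin gene (chr11:8663535-8665535), had 95, 107, 122, 152 and 184 (log2 0.84, interval 0.48 to 1.22). Eif3g, a subunit of a translation initiation factor, had 146, 188, 249, 198 and 275 (log2 0.80). Psmd2, a proteasome subunit gene, had 89, 130, 118, 117 and 164 (log2 0.77). In these 4 the highest count was in the promoter-weighted quintile. Iqcn, the first by ratio at 0.90, had 67, 142, 114, 143 and 135 fragments, so that its difference lay between the lowest quintile and the rest. Slc41a3, Mbnl3, Dnajb14 and Bri3bp were at 0.74 to 0.84.

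Motif families were compared over 42344 open distal tiles, those with at least 20 fragments in both groups together, without the multi-copy tiles. Each tile was asked whether it held a motif on either strand, and the value was also given beyond that of tiles of like GC content and strength. Tiles with a CTCF motif, 8.33% of the tiles, held 10.4% of the fragments of promoter-weighted cells and 9.05% of those of distal-weighted cells (log2 0.20, interval 0.18 to 0.21). Beyond GC content and strength this was 0.21, and with cells chosen on the other chromosomes 0.21. It was the highest value among 18 families.

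Several families bound by blood enhancer factors were lower. PU.1 (AGAGGAAGT, which contains the ETS letters), the myeloid and lymphoid master regulator, was in 3.02% of the tiles and at −0.18 (interval −0.20 to −0.15), or −0.15 beyond GC content and strength. AP-1 (TGANTCA), the site of FOS and JUN, in 16.7% of the tiles, was at −0.14, or −0.13 beyond. HLF/NFIL3 (TTANGTAA) was at −0.12, or −0.07 beyond. HLF is a factor that marks HSCs. CREB/ATF (TGACGTCA), in 0.673% of the tiles, was at −0.12, but at −0.07 with cells chosen on the other chromosomes.

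The short ETS motif, present in 60.4% of the tiles, was at −0.05, and the same beyond GC content and strength. The GATA motif, in 23.2%, was at −0.07, or −0.04 beyond. The RUNX motif (TGTGGT), in 39.2%, was at −0.04, or −0.03 beyond. MEIS (TGACAG) and HOXA9 (TTTATGG) were at −0.02 and −0.07, or −0.02 and −0.03 beyond. The GC box of SP and KLF factors (GGGCGG) was at 0.13, of which 0.04 remained beyond GC content and strength. YY1 (AANATGGCG) was at 0.08, or 0.06 beyond. TEAD (GGAATG), NFY (CCAAT) and STAT (TTCNNNGAA) stayed within 0.02 of 0. A motif match is a run of letters and does not show that the factor was bound.

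**Figure D5:**
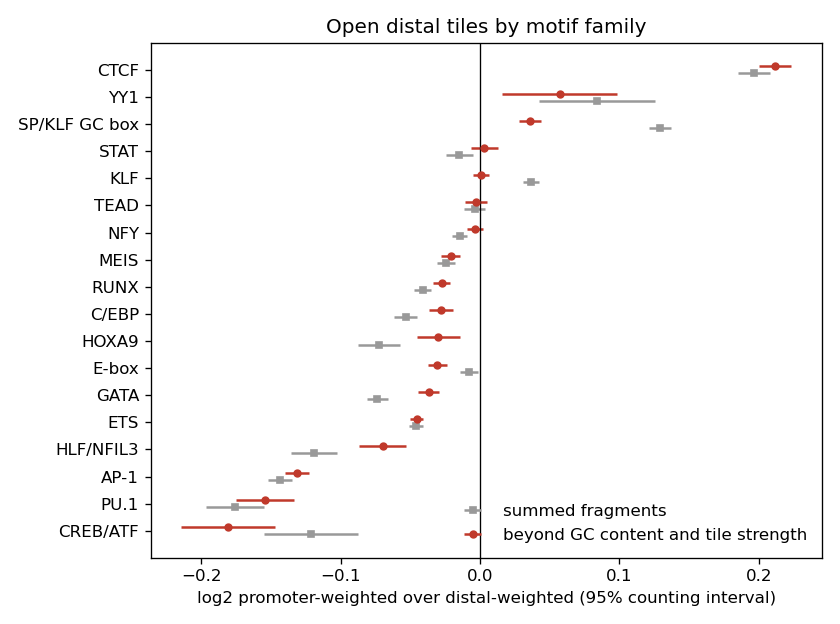
log2 of promoter-weighted over distal-weighted fragments in open distal tiles that hold a motif, as summed (squares) and beyond tiles of like GC content and strength (circles), with 95% counting intervals. CTCF stands alone at 0.21, and PU.1, AP-1 and CREB/ATF lie lowest, at −0.13 to −0.18 beyond GC content and strength.

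Gene lists were read against all genes. Of 13173 promoters with at least 50 fragments, 10.3% had an interval wholly above 0 and 11.3% wholly below, with a median of −0.01. The distal part of a gene is its body and 10000 bp upstream without 2000 bp around every TSS. Of 12404 such parts 11.9% were above and 8.05% below, with a median of 0.06.

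HSC transcription factor genes showed no common direction. Of 17 promoters 2 were above and 4 below, with a median of −0.02. Myct1, a gene of HSC self-renewal, had 203 promoter fragments in promoter-weighted and 303 in distal-weighted cells (log2 −0.69), and Runx1, a master regulator of blood formation, 275 and 334 (log2 −0.39). Nkx2-3 was at −0.52. Fli1, an ETS factor gene, was higher with 214 and 157 (log2 0.34), and its distal part was also higher (log2 0.24). Runx1 was lower at its promoter and higher in its distal part, with 1801 and 1902 fragments (log2 0.14, interval above 0).

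Surface and reporter genes of HSCs had a median of −0.22. Of 18 promoters 15 were below 0, beside 6705 of 13173 over all genes, and 2 had an interval below it and 1 above, and of 18 distal parts 5 had an interval below 0 and 1 above. Most of the 18 promoters were CpG-poor. Among promoters with at least 200 fragments the CpG-poor median was −0.06, and it was −0.29 below a CpG ratio of 0.2. The part of CpG content in the value of this list was not tested. Neo1, a netrin receptor gene used as an HSC marker, had 73 and 102 promoter fragments (log2 −0.59) and 174 and 360 distal fragments (log2 −0.83), the lowest distal value of the list. Tek, the gene of the angiopoietin receptor TIE2, was at −0.42 in its distal part, and Cd27 at −0.58. Itga2b, which encodes CD41, was higher in its distal part with 50 and 26 fragments (log2 1.17). With cells chosen on the other chromosomes the Itga2b value was 0.74, and the Neo1 values were −0.38 at the promoter and −0.83 in the distal part. Ly6a, the Sca-1 gene, had only 17 and 3 promoter fragments and was not counted.

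Platelet genes were mixed. Of 10 megakaryocyte and platelet promoters 2 were above and 2 below. Pf4, platelet factor 4, had 167 and 241 promoter fragments (log2 −0.64) and Gp9 145 and 99 (log2 0.44). In their distal parts Plek was at −0.53, Rab27b at −0.45, Gp1ba at 0.66 and Nfe2 at 0.47. With cells chosen on the other chromosomes these were −0.34, −0.61, 0.29 and 0.15. Of the 5 genes of the study's platelet-bias panel, no promoter interval left out 0 and 2 distal intervals lay below it, those of Pdgfc (log2 −0.59) and Vwf (log2 −0.19). With cells chosen on the other chromosomes Pdgfc was at −0.69 and Vwf at −0.03. Of the multi-lineage panel, Ctla2a was lower at its promoter and Flt3 in its distal part (log2 −0.37), among 3 promoters and 3 distal parts with enough fragments.

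Cell cycle genes had 4 of 22 promoter intervals above 0 and none below, with a median of 0.05. Rrm2, a ribonucleotide reductase subunit gene, was at 0.45, Mki67 at 0.37, E2f1 at 0.29 and Ccne1 at 0.17, all CpG-rich promoters, whose class median was 0.03. With cells chosen on the other chromosomes the median of the list was −0.01. Immediate-early genes were split: Ier2 was higher at its promoter with 500 and 315 fragments (log2 0.56), and Fos (log2 −0.33) and Nr4a1 (log2 −0.41) were lower. Interferon-stimulated genes had 12 of 14 promoters below 0, beside 6705 of 13173 over all genes. Only 2 of the 14 had an interval below it (14.3%, beside 11.3% of all genes), those of Rsad2 (log2 −0.81) and Mx1 (log2 −1.17), and that of Ifit2 lay above it (log2 0.43). Most of the 14 were CpG-poor, and the median of CpG-poor promoters with at least 200 fragments was −0.06. The part of CpG content was not tested.

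Of 76 promoters of cytosolic ribosomal protein genes, per promoter fragment of the group, 3 had an interval above 0 and 11 below, with a median of −0.04. These are 3.95% and 14.5%, beside 10.3% and 11.3% of all genes. Of 22 distal parts of these genes, per distal fragment, 3 had an interval above 0 and none below, with a median of 0.20. Nuclear genes of the respiratory chain had 11 above and 11 below of 89, that is 12.4% each.

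Markers of other cell types were summed to compare the 2 groups. Both come from the same sort, so these sums cannot show whether other cells were among them. Summed promoter fragments were 457 and 454 for granulocyte and monocyte genes, 177 and 153 for B cell genes, and 387 and 360 for T and NK cell genes in promoter- and distal-weighted cells, with pooled intervals that held 0. Of the granulocyte and monocyte sums Cebpa alone had 287 and 243, and 4 of the 5 promoters with enough fragments were below 0, with a median of −0.32. Promoters of stromal and endothelial genes had 549 and 575 (log2 −0.18, interval −0.35 to −0.01) and erythroid genes 1310 and 1095 (log2 0.15, interval 0.03 to 0.26), Car2 with 414 and 308 among them. In distal parts B cell genes had 970 and 1282 (log2 −0.18, interval −0.30 to −0.06), of which Ebf1 had 327 and 462, whereas Cd79a had 37 and 20 (log2 1.11, interval 0.29 to 1.97). Erythroid distal parts had 1004 and 1070 (log2 0.13, interval 0.0056 to 0.26). The distal sums of the granulocyte and monocyte, T and NK cell, and stromal and endothelial lists had intervals that held 0. The part of these lists in the other results was not tested.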

How the data were processed

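Cells, RNA columns and ATAC fragments came from 1 preparation of sorted HSCs. The authors ran Cell Ranger ARC 2.0.2 on the reference mm10 2020-A, per the file headers, and deposited counts per barcode (fragments, fragments in peaks, TSS fragments, RNA UMIs and reads) and a list of fragments with their read counts; duplicate ATAC pairs were collapsed. The antibody-tag counts were not used here, nor were gene-level RNA counts. From 42000180 deposited fragments, 38414325 of called cells on chromosomes 1 to 19 and X were used with GENCODE vM21 starts on GRCm38. The deposited TSS count was close to the fragments within 1000 bp of every annotated start (median ratio 0.993). Tiles were 500 bp, distal meant over 2000 bp from every start, and promoters were 1000 bp each side of a protein-coding gene's principal start. Counts were divided by the group's distal or promoter total. Each ratio has an exact (Clopper-Pearson) 95% interval, which covers counting error only, and no test was made because there is 1 sample. Peaks for shares per set of chromosomes were tiles with at least 40 fragments, which held a median of 71.4% of a cell's fragments.

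The 10 largest ratios in each direction were named among tiles or promoters with at least 200 fragments, an interval without 0 on the log2 scale and the same side with cells chosen on the other chromosomes; adjacent tiles counted once, as did promoters within 1000 bp. Some named genes are not reported here. Gene lists, cells and tests were chosen with earlier results of these data known. Doublets were cells with an excess of sites covered by more than 2 fragments (q below 0.01, Poisson; 592 recurrent sites left out). They stayed in the groups and were left out in an alternative. Motifs were searched as letters, the CTCF consensus by its usual letters. Promoter sequences are RefSeq's, and 15 of 20 named promoters matched by symbol. Interval code was tested on simulated data. Tools were Python 3.11.15, numpy 2.4.6, scipy 1.17.1 and pandas 2.3.3.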

Additional observations from a re-analysis of the deposited data

How the results depend on the processing

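The depth of 1 preparation limits every value: intervals cover counting error and not the spread between mice or libraries. Counts past 1.5-fold depend on the fragment minimum by construction, since fewer fragments give wider scatter.

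The log2 ratio of RNA UMIs per cell, 0.0023 as reported, moved to 0.061 with deciles, 0.030 within deciles of fragments in peaks, −0.023 within deciles of the share in peaks, 0.042 with cells over 0.15 in peaks, −0.037 without doublets, and −0.077 and −0.061 with cells chosen on odd autosomes or on even autosomes and X. The intronic difference kept its direction in every alternative run. It was −2.57 percentage points with deciles, −2.05 within deciles of fragments in peaks, −1.43 within deciles of the share in peaks, −2.05 with cells over 0.15 in peaks, and −0.54 and −0.45 on the 2 sets of chromosomes. The distal short share also kept its direction: −4.57 with deciles, −3.27 within deciles of the share in peaks, −4.03 with cells over 0.15 in peaks, −3.72 without doublets, −2.59 with the other chromosomes, −3.66 when thinned, −2.36 for fragments under 100 bp and −3.63 from 5000 bp.

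Tiles past 1.5-fold, 155 of 1346 as reported, were 886 of 5037 with at least 100 fragments, 29 of 285 with 400, 41 of 302 with deciles (31 higher, 10 lower), 302 of 1459 with cells over 0.15 in peaks (33 higher, 269 lower) and 11 of 38, all higher, when thinned. These tile counts kept the multi-copy tiles. Promoters past 1.5-fold, 168 of 9018, were 442 with at least 100 fragments, 37 with 400, 28 of 2568 when thinned and 105 with the other chromosomes (19 higher, 86 lower). With deciles they were 190 of 5956 (110 higher, 80 lower). The split of tiles was 70 higher and 56 lower with the other chromosomes.

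Alternatives chosen after seeing the data left out the rRNA locus and multi-copy tiles from the share and the fragments: UMIs −0.069, intronic −0.54, short share −2.71, tiles 66 higher and 58 lower. Quintiles of the share in tiles gave −0.081, −0.44 and −2.69. Without cells of 5% or more mitochondrial pairs the UMI ratio was 0.0097. The causes of these shifts were not tested. No paired analysis was possible because each library is 1 sample.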
